A study of Mus musculus with 6 samples.

Results

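The genes described here are 39 mouse genes of the ATF4 branch of the integrated stress response, comprising transcription factors, feedback genes, enzymes of amino acid synthesis and one-carbon metabolism, amino acid transporters, and tRNA synthetases with the tRNA exporter. They were listed by symbol, with earlier results of these data known, and 38 of them were found among the 54532 genes of the count table. Mars1 was not listed under that symbol, and its older name Mars was counted with the other cytosolic synthetases. Ddit3 had a second identifier with no read in any library. Of the 38 genes, 34 were counted highly enough to be tested. Vldlr had 0 counts, Cbs had 1 count over all libraries, Gpt2 had between 2 and 9 counts per library and Slc7a3 between 2 and 8.

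RNA-seq compared AE9a leukemia cells of C57BL/6 mice from the central bone marrow (CBM), which were flushed out, with cells from the endosteal bone marrow (EBM), which were released from the remaining bone with collagenase. AE9a is a truncated AML1-ETO fusion protein, delivered by retrovirus into c-Kit+ bone marrow progenitors. The leukemia was passed on to the third generation of transplanted mice, the source of all 6 libraries (3 CBM and 3 EBM). Whether these libraries descend from the same primary leukemia is not stated in the sources used here. The labels name no drug treatment, and the age of the mice at collection is not given in the sources used here. Per the labels, cells were kept in medium with serum before and after sorting. Region and collagenase digestion coincide in every library and cannot be told apart. The labels do not say whether replicates came from separate mice, so p-values measure the spread between these libraries, which may be in part technical.

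The integrated stress response begins when the kinases GCN2, PERK, PKR or HRI phosphorylate the translation factor eIF2. General protein synthesis then slows, while the Atf4 mRNA is translated more efficiently through its upstream open reading frames, so that ATF4 protein can change with little change in its mRNA. ATF4, usually as a dimer with a C/EBP protein, binds C/EBP-ATF response elements in genes that make, import and charge amino acids. It also induces CHOP, TRIB3 and the eIF2 phosphatase subunit GADD34, which limit the response or promote cell death.

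Each library had between 16436526 and 19462964 reads counted on genes, and a floor of 3 counts corresponded to between 0.149 and 0.193 CPM (counts scaled to library size with TMM factors), which covers counting error only because PCR copies are not independent molecules. The first principal component (53.0% of the variance) did not separate the regions but set CBM 2 and EBM 3 apart from CBM 1 and EBM 1, whereas the second (19.7%) separated them. Kit was between 196 and 239 CPM in every library, and the progenitor markers Gata2, Myb, Runx1, Runx1t1 and Spi1 were all well counted. Cd34, another marker of that list, was uneven, at 15.4, 1.16 and 4.86 CPM in CBM and 16.4, 10.5 and 1.22 CPM in EBM. Ptprc, which encodes the pan-leukocyte antigen CD45, was between 0.0992 and 3.58 CPM, so this defining marker of blood cells was close to absent. The summed osteoblast markers were at most 0.445 CPM (Sp7, Alpl and Dmp1 were at 0) and the stromal markers at most 1 CPM. Osteoclast markers summed to between 258 and 565 CPM, and Acp5 alone was between 258 and 565 CPM. Erythroid markers summed to between 2037 and 5434 CPM, beside between 1660 and 2375 CPM for the progenitor markers. Mature neutrophil markers summed to 224 CPM in CBM 2 and 161 CPM in EBM 2, and to between 3.32 and 49.0 CPM in the other 4 libraries.

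In EBM, 27 of the 34 tested genes were higher than in CBM and 7 were lower. This is 79.4% higher, where 50.4% of all 13352 tested genes were. Their median log2 fold change (log2FC, EBM over CBM) was 0.23, beside 0.0017 over all genes. By the quasi-likelihood test of edgeR, 0 of them passed an adjusted p of 0.05 (2 with DESeq2), as did 0 of all genes (0%; 1056 at an unadjusted p under 0.05, and 175 with DESeq2 after adjustment), and their adjusted p lay between 0.170 and 0.995. At an unadjusted p under 0.05, 5 genes were higher in EBM, which is 14.7% of them beside 4.01% of all genes, and 0 were lower, beside 3.90% of all genes. These 5 were Slc38a2, Cebpg, Trib3, Atf4 and Slc3a2. They were also the 5 genes with every EBM library above every CBM library (14.7% beside 7.47% of all genes), and none had every EBM library below (7.65% of all genes). The number rests in part on CBM 3: without that library 11 genes were higher at an unadjusted p under 0.05, with Aars, Mthfd2, Nars, Psat1, Sars, Slc7a1 and Slc7a5 added and Slc3a2 lost, beside 2.66% of all genes. Without CBM 2 the median log2FC was 0.11. In bulk RNA, fewer cells expressing a gene and less RNA per cell cannot be told apart.

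**Figure D1:**
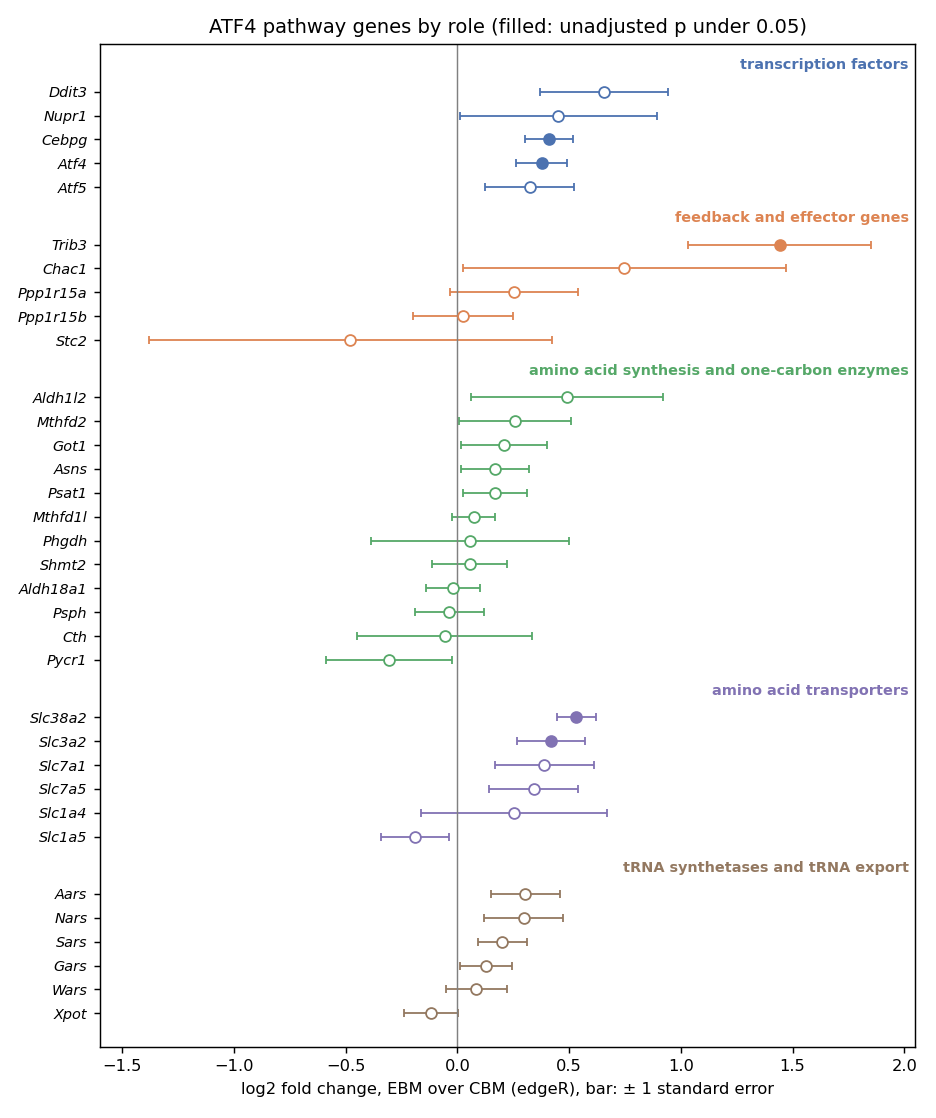
Log2 fold change of each of the 34 tested genes in EBM over CBM (horizontal axis, edgeR, bars ± 1 standard error), grouped by role and ordered within it. Filled points mark the 5 genes with an unadjusted p under 0.05, all right of 0, and Trib3 lies farthest right at 1.44.

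Promoter sequences of RefSeq (build GRCm38.p6, 250 bases before to 50 bases after the gene start) were searched on both strands for TGATGNAAN, the core of the C/EBP-ATF response element. The core was in the windows of 1215 of 27025 gene symbols, or 4.50%. Windows were given for 31 of the 39 genes, not for Ppp1r15b, Aldh1l2, Cth, Slc7a5, Slc7a3, Slc1a5, Wars and Nars, and 10 of the 31 held the core. One of these was Vldlr, and a site of each of the 9 tested genes is shown because these carry the sequence that ATF4 is known to bind. Each line gives a stretch in the direction of the strand named, with the core in capitals.

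Asns (chr6:7693214-7693242, minus strand): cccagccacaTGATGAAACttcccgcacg
Trib3 (chr2:152344029-152344057, plus strand): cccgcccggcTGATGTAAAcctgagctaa
Chac1 (chr2:119351038-119351066, minus strand): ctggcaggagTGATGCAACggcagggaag
Nupr1 (chr7:126625563-126625591, plus strand): aagccctgtcTGATGCAATctggcccttt
Aars (chr8:111033840-111033868, minus strand): cagagcgctcTGATGAAAAgtgacccgct
Gars (chr6:55037960-55037988, minus strand): gcccggtgcaTGATGAAATagcgcagcca
Slc1a4 (chr11:20332700-20332728, plus strand): aggctggagaTGATGCAACgcaggaggca
Pycr1 (chr11:120643833-120643861, minus strand): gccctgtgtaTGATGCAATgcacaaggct
Got1 (chr19:43524690-43524718, plus strand): gaggcttgtaTGATGCAACcaatgcaatg

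The core began 23 bases before the RefSeq start of Asns and 31 bases before that of Gars. It began 103 bases before the starts of Pycr1 and Got1, 111 bases before that of Nupr1 and 194 bases before that of Chac1. In Slc1a4 it spanned the start, and in Trib3 and the Aars site shown it followed the start by 13 and 8 bases. The Aars window held a second core, not shown, that began 113 bases before the start. In Asns and Pycr1 the core read in the direction of transcription, and in the other 7 genes on the opposite strand. The 9 tested genes with the core had a median log2FC of 0.25, with 8 higher in EBM. The 18 tested genes with a window and no core had a median of 0.23, with 14 higher. Among the 5 genes with an unadjusted p under 0.05, Trib3 was the one whose window held the core. The upstream 250 bases of Asns, the most abundant of the genes, and of Slc38a2, the one with the smallest p, are given for comparison.

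Asns (chr6:7693210-7693459, minus strand): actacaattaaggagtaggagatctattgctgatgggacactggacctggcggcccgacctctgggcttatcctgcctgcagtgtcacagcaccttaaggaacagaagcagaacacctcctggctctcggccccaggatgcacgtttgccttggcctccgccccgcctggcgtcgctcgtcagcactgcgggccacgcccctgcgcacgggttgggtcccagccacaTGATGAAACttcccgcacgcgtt
Slc38a2 (chr15:96699729-96699978, minus strand): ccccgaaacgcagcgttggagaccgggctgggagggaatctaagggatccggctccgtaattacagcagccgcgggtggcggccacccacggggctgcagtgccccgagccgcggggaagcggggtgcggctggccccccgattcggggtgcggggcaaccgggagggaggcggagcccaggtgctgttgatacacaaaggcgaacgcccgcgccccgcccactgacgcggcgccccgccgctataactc

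The Asns stretch holds 1 match, in capitals, close to its end next to the start. The Slc38a2 stretch holds 0 matches. That says only that these letters were not in this window, since such elements can also lie within a gene or farther away.

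Per length, the most abundant of the genes were Asns, which encodes asparagine synthetase, with a mean of 332 RPKM (CPM per kilobase of gene length) over the 6 libraries, then Ppp1r15a with 264 RPKM and Atf4 with 177 RPKM. Slc7a5, Nars and Slc3a2 followed with between 79.4 and 97.3 RPKM. Ddit3 had a mean of 66.7 RPKM, Cebpg 11.9 RPKM and Trib3 7.33 RPKM. Chac1, Cth, Stc2 and Aldh1l2 were the lowest of the tested genes, with means between 0.217 and 0.790 RPKM. The 4 untested genes were all under 0.1 RPKM.

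The 5 transcription factors of the group were all higher in EBM, with log2FCs between 0.32 and 0.66 and a median of 0.41. At an unadjusted p under 0.05, 2 of them, Atf4 and Cebpg, were higher, beside 4.01% of all genes. Atf4 (ENSMUSG00000042406, chr15:80255184-80257541 on the plus strand of GRCm38) encodes the central factor. Its level was 375, 349 and 366 CPM in CBM 1 to 3 and 428, 449 and 540 CPM in EBM 1 to 3. The CBM libraries lay close together, all EBM libraries were above them, and EBM 3 was the highest. Atf4 was therefore 1.30-fold higher in EBM (log2FC 0.38, standard error (SE) 0.11, edgeR p = 0.0133, adjusted p = 0.456, exact two-sided permutation p = 0.1). A p of 0.1 is the smallest that a permutation of 3 libraries against 3 allows.

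Cebpg (ENSMUSG00000056216, chr7:35046422-35056573 on the minus strand) encodes C/EBPγ, a partner with which ATF4 dimerizes. It was at 55.3, 54.4 and 62.1 CPM in CBM and 68.3, 80.9 and 78.8 CPM in EBM. The regions did not overlap, and the EBM mean was 1.33-fold higher (log2FC 0.41, SE 0.11, edgeR p = 0.00704, adjusted p = 0.379, exact permutation p = 0.1).

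Ddit3 (ENSMUSG00000025408, chr10:127290774-127296288 on the plus strand) encodes CHOP, which acts downstream of ATF4 and can promote cell death. Its level was 70.2, 109 and 86.8 CPM in CBM and 90.3, 139 and 191 CPM in EBM. EBM 1 lay below CBM 2, so the regions overlapped, while EBM 2 and EBM 3 were the highest libraries. The log2FC of 0.66 (SE 0.29) had an edgeR p of 0.0565 (adjusted p = 0.644). Ddit3 shares 68 bases with Mars on the other strand, and whether counting used strand is not given in the sources used here. Atf5, which encodes a related stress factor and overlaps Nup62 on the other strand, was at 11.2, 16.3 and 14.4 CPM in CBM and 14.3, 20.2 and 18 CPM in EBM. Nupr1, which encodes a small stress-induced chromatin protein, was at 16.1, 5.0 and 15.7 CPM in CBM and 21.3, 16.8 and 12.3 CPM in EBM. The regions overlapped for both, and CBM 2 was the lowest library for Nupr1 (edgeR adjusted p = 0.901).

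**Figure D2:**
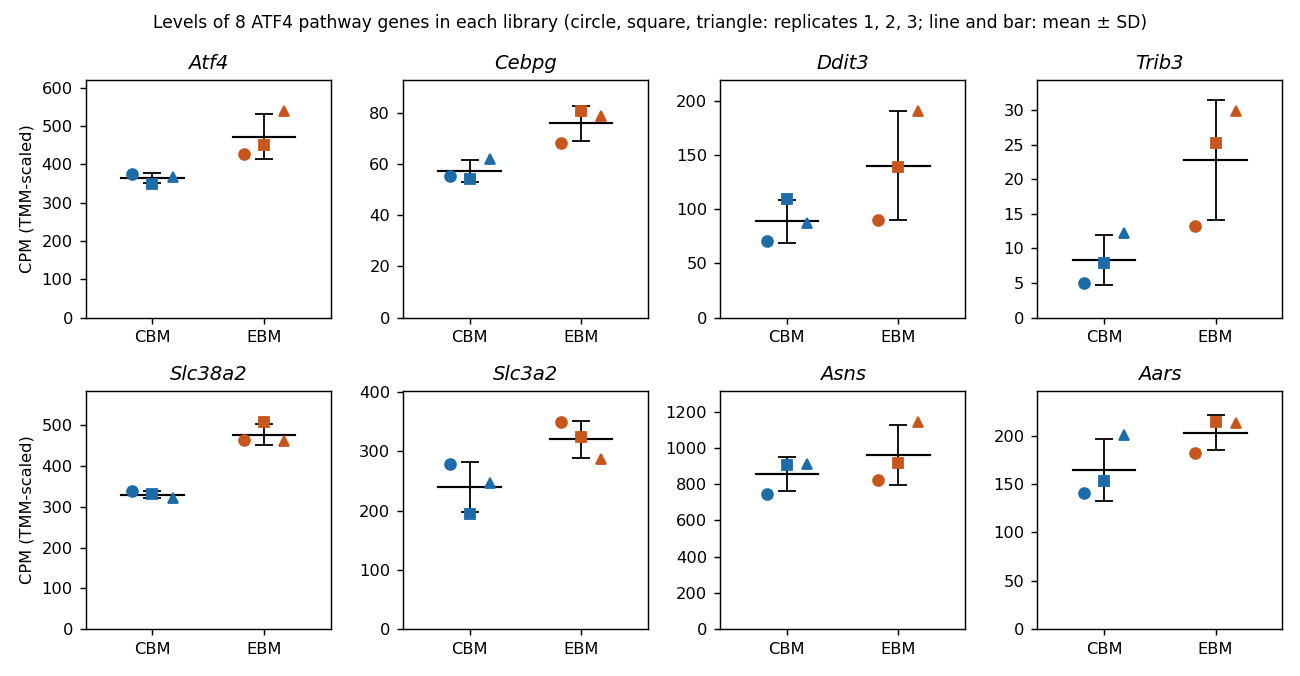
CPM (vertical axis, from 0) of 8 genes in the 3 CBM (blue) and 3 EBM (orange) libraries, with circle, square and triangle for replicates 1, 2 and 3 and a line and bar for mean ± SD. For Atf4, Cebpg, Trib3, Slc38a2 and Slc3a2 all EBM points lie above all CBM points, and for Ddit3, Asns and Aars they overlap.

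Among the feedback and effector genes, Trib3 showed the largest log2FC of the 34 tested genes. Trib3 (ENSMUSG00000032715, chr2:152337422-152344032 on the minus strand) encodes a pseudokinase that ATF4 and CHOP induce and that in turn restrains ATF4. It was at 5.01, 7.84 and 12.3 CPM in CBM, from 88, 149 and 247 counts, and at 13.2, 25.3 and 29.9 CPM in EBM, from 239, 454 and 466 counts. The ranges did not overlap, though EBM 1 lay only just above CBM 3. The EBM mean was 2.72-fold higher (log2FC 1.44, SE 0.41, edgeR p = 0.0101, adjusted p = 0.419, exact permutation p = 0.1). DESeq2 gave an adjusted p of 0.0224 for Trib3, and over all 14 alternative analyses it lay between 0.0224 and 0.863.

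Chac1 encodes a glutathione-degrading enzyme that is among the most inducible ATF4 targets. It was at 0.455, 0.526 and 1.89 CPM in CBM and 0.552, 1.84 and 2.51 CPM in EBM, from between 8 and 39 counts. These are low counts in overlapping regions, with CBM 3, EBM 2 and EBM 3 above the others, and the log2FC was 0.75 (SE 0.72, edgeR adjusted p = 0.901). Ppp1r15a encodes GADD34, the induced subunit that directs the phosphatase to eIF2. It was at 800, 853 and 465 CPM in CBM and 631, 784 and 1111 CPM in EBM, so the lowest library was CBM 3, the highest was EBM 3, and the others overlapped. Ppp1r15b, which encodes the constitutive counterpart, had a log2FC of 0.025 (edgeR adjusted p = 0.995). Stc2, which encodes the secreted protein stanniocalcin 2, was lower in EBM with a log2FC of -0.48 and a standard error of 0.90, from between 5 and 68 counts. The direction rests on CBM 1, without which the log2FC was 0.97.

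The 12 tested enzymes of amino acid synthesis and one-carbon metabolism had a median log2FC of 0.06, with 8 higher and 4 lower. Of them 0 had an unadjusted p under 0.05, beside 4.01% of all genes higher and 3.90% lower. For all 12 the regions overlapped, while of all genes 7.47% had every EBM library above every CBM library and 7.65% had every one below. Asns (ENSMUSG00000029752, chr6:7675169-7693254 on the minus strand) was at 747, 907 and 912 CPM in CBM and 824, 919 and 1143 CPM in EBM. CBM 1 was the lowest and EBM 3 the highest library, and the remaining 4 lay between them. The log2FC was 0.17 (SE 0.15, edgeR p = 0.301, adjusted p = 0.883, exact permutation p = 0.4).

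Psat1, Phgdh and Psph encode the 3 enzymes of serine synthesis. Psat1 was at 217, 206 and 286 CPM in CBM and 251, 282 and 263 CPM in EBM (log2FC 0.17, edgeR adjusted p = 0.873). Phgdh was at 72, 27.1 and 76.1 CPM in CBM and 75.3, 72.5 and 34.3 CPM in EBM. Its low libraries were CBM 2 and EBM 3, which stood together on the first principal component, and its log2FC was 0.057 (SE 0.44.) Psph had a log2FC of -0.036 and overlaps Cct6a on the other strand.

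The mitochondrial folate enzymes Shmt2, Mthfd2 and Mthfd1l had log2FCs of 0.054, 0.26 and 0.072. Shmt2 and Mthfd2 were lowest in CBM 2, at 182 and 33.6 CPM, while CBM 3, at 284 and 66.2 CPM, was the highest library for Shmt2 and next to the highest for Mthfd2. Aldh1l2, which encodes the mitochondrial formyltetrahydrofolate dehydrogenase, was at 1.99, 0.895 and 1.19 CPM in CBM and 2.37, 2.23 and 1.09 CPM in EBM. With between 17 and 43 counts, a log2FC of 0.49 (SE 0.43, edgeR adjusted p = 0.877), and 22310 counts on D10Wsu102e, which overlaps it on the other strand, its level is uncertain. Of the remaining enzymes, Got1 (aspartate aminotransferase) had a log2FC of 0.21, Pycr1 and Aldh18a1 (proline synthesis) of -0.31 and -0.022, and Cth (cysteine synthesis) of -0.057.

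Of the 6 tested amino acid transporters, 5 were higher in EBM, with a median log2FC of 0.36. At an unadjusted p under 0.05, 2 were higher, beside 4.01% of all genes. Slc38a2 (ENSMUSG00000022462, chr15:96687392-96699730 on the minus strand) encodes SNAT2, a sodium-coupled importer of small neutral amino acids that amino acid starvation induces. It was at 338, 332 and 321 CPM in CBM and 463, 508 and 461 CPM in EBM. The gap between the regions was wider than the spread within either of them. Slc38a2 was 1.45-fold higher in EBM (mean ± SD of 3 libraries, 330 ± 8.93 CPM against 478 ± 26.7 CPM) and ranked 43 by p among the 13352 genes. Its log2FC was 0.53 (SE 0.088, edgeR p = 0.000568, adjusted p = 0.170, exact permutation p = 0.1). DESeq2 gave an adjusted p of 0.000165, and over the 14 alternative analyses it lay between 0.000165 and 0.798.

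Slc3a2 (ENSMUSG00000010095, chr19:8706882-8723369 on the minus strand) encodes 4F2hc, the heavy chain that carries LAT1 and other light chains to the cell surface. It was at 279, 194 and 246 CPM in CBM and 349, 324 and 288 CPM in EBM. The regions did not overlap, but EBM 3 was only just above CBM 1. The log2FC was 0.42 (SE 0.15, edgeR p = 0.0301, adjusted p = 0.565, exact permutation p = 0.1), and the unadjusted p was above 0.05 when CBM 2, CBM 3, EBM 1 or EBM 2 was left out.

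Slc7a5 encodes LAT1, the light chain that imports leucine and other large neutral amino acids. It was at 326, 229 and 400 CPM in CBM and 416, 419 and 375 CPM in EBM (log2FC 0.34, edgeR adjusted p = 0.736). Slc7a1, which encodes the arginine and lysine importer CAT1, was at 142, 99.0 and 188 CPM in CBM and 172, 195 and 194 CPM in EBM (log2FC 0.39, edgeR adjusted p = 0.728). In both genes CBM 2 was the lowest library and CBM 3 lay within the EBM range. Slc1a4 had a log2FC of 0.25 (SE 0.42.) Slc1a5, which encodes the glutamine carrier ASCT2, was the 1 transporter of the group that was lower in EBM, at 276, 242 and 341 CPM in CBM and 252, 277 and 223 CPM in EBM (log2FC -0.19, edgeR adjusted p = 0.852), with overlapping regions.

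The 5 tRNA synthetases were all higher in EBM, with log2FCs between 0.083 and 0.30. None had an unadjusted p under 0.05, where 4.01% of all genes were higher at that threshold. Aars (alanine) was at 141, 153 and 201 CPM in CBM and 183, 214 and 213 CPM in EBM (log2FC 0.30, SE 0.15, edgeR p = 0.0899, adjusted p = 0.693, exact permutation p = 0.2). Sars (serine) was at 164, 160 and 199 CPM in CBM and 194, 206 and 201 CPM in EBM (log2FC 0.20, SE 0.11, edgeR p = 0.113, adjusted p = 0.725, exact permutation p = 0.2). In both genes EBM 1 was below CBM 3, and the other EBM libraries were above all CBM libraries. Nars (asparagine), Gars (glycine) and Wars (tryptophan) had log2FCs of 0.30, 0.13 and 0.083, and Xpot, which encodes the exporter of tRNA from the nucleus, of -0.12, all with overlapping regions.

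The roles differed in how the libraries lined up. For each role, log2(CPM + 0.5) was centred on each gene's mean over the 6 libraries and averaged over its genes. The transcription factors averaged -0.239, -0.353 and -0.0884 in CBM 1 to 3 and 0.0766, 0.293 and 0.312 in EBM 1 to 3. The feedback and effector genes averaged -0.172, -0.287 and -0.151 in CBM and -0.110, 0.313 and 0.407 in EBM. In these roles all EBM libraries were above all CBM libraries, and EBM 2 and EBM 3 were the highest.

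The transporters averaged -0.0793, -0.524 and 0.129 in CBM and 0.174, 0.280 and 0.0200 in EBM. The synthesis enzymes averaged -0.0268, -0.336 and 0.220 in CBM and 0.109, 0.156 and -0.121 in EBM, and the synthetases with Xpot averaged -0.124, -0.270 and 0.154 in CBM and 0.0387, 0.141 and 0.0598 in EBM. In these 3 roles CBM 3 lay within or above the EBM range, and the regions overlapped. CBM 2 was the lowest library in all 5 roles. It was also the library with the largest sum of neutrophil markers (224 CPM) and of erythroid markers (5434 CPM, beside 2037 to 3766 CPM in the others). EBM 2 had the next largest sum of neutrophil markers (161 CPM) and the highest average for the transporters (0.280). The part of other cells in the low values of CBM 2 was not tested.

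**Figure D3:**
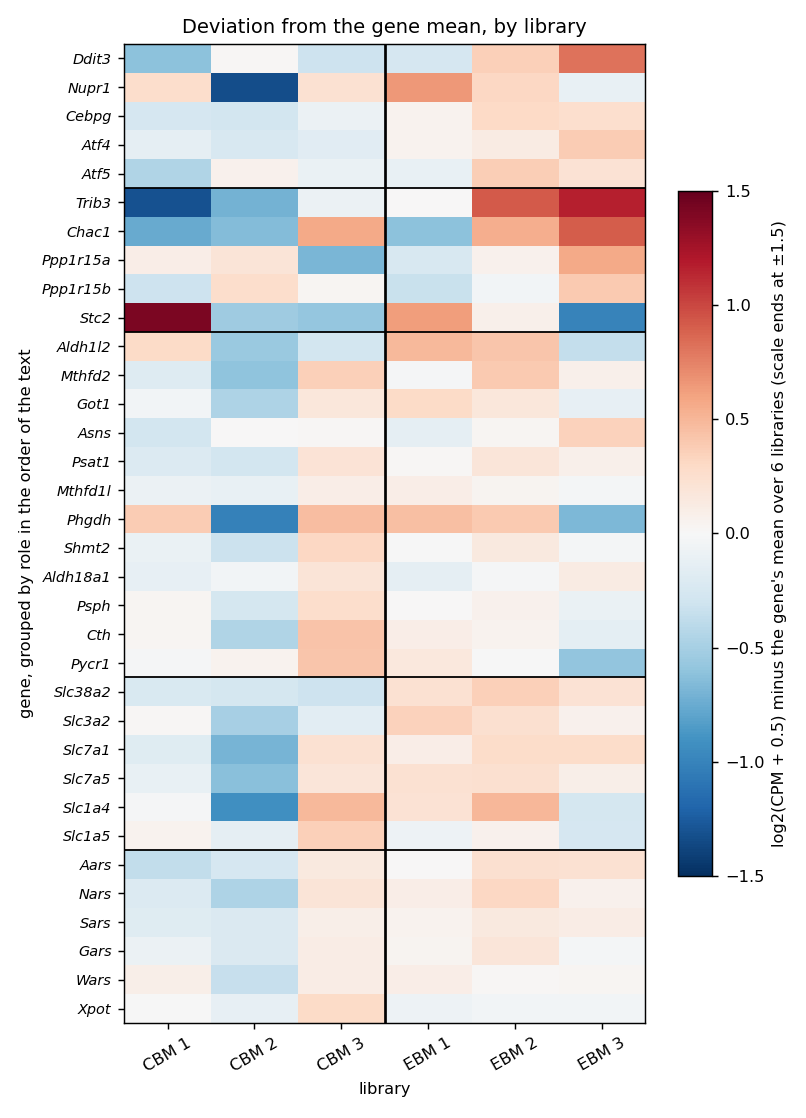
Deviation of log2(CPM + 0.5) from each gene's mean over the 6 libraries (color, from blue below to red above, with the scale ending at ±1.5), with genes in rows by role and libraries in columns. CBM 2 is mostly blue, CBM 3 is red for most synthesis enzymes and transporters, and Trib3 and Ddit3 are deepest red in EBM 3.

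Other genes of the pathway were taken from lists written from general knowledge, but with earlier results of these data known. Their values are therefore not independent of those results. Of 15 tested genes of the eIF2 kinases, eIF2, eIF2B and their partners, 8 were higher and 7 lower, with a median log2FC of 0.050. At an unadjusted p under 0.05, 2 of them were higher and 1 was lower, beside 4.01% and 3.90% of all genes. Eif2s2 (the beta subunit of eIF2) and Eif2b2 (a subunit of its exchange factor) had log2FCs of 0.33 and 0.25 (edgeR adjusted p = 0.554 and 0.561). Eif2ak2, which encodes PKR, was at 44.3, 71.1 and 50.1 CPM in CBM and 35.8, 36.4 and 43.2 CPM in EBM (log2FC -0.52, edgeR adjusted p = 0.572). Eif2ak3, which encodes PERK, had a log2FC of -0.27 (edgeR adjusted p = 0.678). In this list all EBM libraries lay below all CBM libraries for 2 genes, these kinase genes. They lay above for 2, Eif2s2 and Eif2b2, beside 7.65% below and 7.47% above of all genes.

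Of 13 other known ATF4 targets 9 were tested, of which 7 were higher and 2 lower, and they had a median log2FC of 0.57. At an unadjusted p under 0.05, 3 were higher and 0 lower, beside 4.01% and 3.90% of all genes. Sesn2, which encodes a leucine-sensing inhibitor of mTORC1, was at 15.4, 16.8 and 14.4 CPM in CBM and 23.4, 23.8 and 22.9 CPM in EBM (log2FC 0.59, edgeR p = 0.00165, adjusted p = 0.226, between 0.0118 and 0.917 over the 14 alternatives, exact permutation p = 0.1). Ddit4, another mTORC1 inhibitor, had a log2FC of 0.57 (edgeR adjusted p = 0.304, between 0.0163 and 0.985 over the 14 alternatives). The third, named after its values were seen, was Herpud1, which encodes a protein of endoplasmic reticulum-associated degradation. Herpud1 was at 138, 168 and 170 CPM in CBM and 215, 387 and 643 CPM in EBM (log2FC 1.38, edgeR adjusted p = 0.390, between 0.00705 and 0.985 over the alternatives). After adjustment Sesn2, Ddit4 and Herpud1 each passed 0.05 with DESeq2 (adjusted p = 0.0118, 0.0367 and 0.00705) and with 1 surrogate variable (edgeR adjusted p = 0.0391, 0.0163 and 0.0219), and in no other alternative. The highest library of Herpud1 was EBM 3, as for Atf4, Ddit3 and Trib3, and all its EBM values were above all its CBM values. Slc7a11, Gdf15, Fgf21 and Jdp2 were too low to test.

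The 15 other cytosolic tRNA synthetases were all higher in EBM, but by little, where 50.4% of all genes were higher. Their log2FCs lay between 0.038 and 0.23, with a median of 0.12. At an unadjusted p under 0.05, 0 of the 15 were higher or lower, beside 4.01% and 3.90% of all genes. Rars (arginine) had the smallest p, at 0.164 in edgeR's test. Of the 17 mitochondrial synthetases, which are mostly encoded by separate genes, 7 were higher and 10 lower, with a median of -0.023. At an unadjusted p under 0.05, 1 of the 17 was lower and 0 were higher, beside 3.90% and 4.01% of all genes. This gene was Mars2, at 47.3, 46.7 and 53.5 CPM in CBM and 34.6, 38.4 and 32.9 CPM in EBM (log2FC -0.48, edgeR adjusted p = 0.310). Its adjusted p was 0.0499 with 1 surrogate variable, the lowest of the alternatives, which reached 0.985.

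Of the 9 other amino acid transporters tested, 3 were higher and 6 lower, with a median of -0.13. Slc7a7, which encodes y+LAT1, another light chain that pairs with 4F2hc, was at 33.6, 42.1 and 46.4 CPM in CBM and 66.5, 73.1 and 72.8 CPM in EBM. The regions did not overlap, and the log2FC was 0.80 (SE 0.14, edgeR p = 0.000699, adjusted p = 0.179, exact permutation p = 0.1). Over the 14 alternatives its adjusted p lay between 0.000472 and 0.659, and it was under 0.05 with DESeq2 (0.000472) and with 1 surrogate variable (0.0108). Slc36a1 was lower with a log2FC of -0.23 (edgeR adjusted p = 0.693). Of the 9 other serine, glycine and folate enzymes, 3 were higher and 6 lower, with a median of -0.0034. At an unadjusted p under 0.05, 0 of the 9 were higher or lower, beside 4.01% and 3.90% of all genes. All EBM libraries lay below all CBM libraries for 2 of the 9 and above for 0, beside 7.65% and 7.47% of all genes.

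A list of genes that tissue dissociation can induce was also examined. Of 14 immediate early and heat shock genes, 10 were higher and 4 lower, with a median log2FC of 0.47. At an unadjusted p under 0.05, 3 were higher and 1 was lower, beside 4.01% and 3.90% of all genes. The 3 were Hspa1a, Hspa1b and Nr4a1, and Hspa1a passed the count filter only through its EBM libraries. For 3 genes (Hspa1a, Hspa1b and Junb) all EBM libraries lay above all CBM libraries, and for 1 (Dusp1) below. Of all genes 7.47% lay above and 7.65% below. For the other 10, Nr4a1 among them, the regions overlapped. Hspa1b, which encodes the inducible chaperone HSP70 and has a near-identical paralog, Hspa1a, was at 9.5, 3.74 and 3.37 CPM in CBM and 112, 50.3 and 58.6 CPM in EBM (edgeR adjusted p = 0.121, 0.0133 with no filter on low counts, 0.00150 with 1 surrogate variable and 2.4e-14 with DESeq2, and up to 0.640 over the alternatives). Hspa1a itself was at most 0.114 CPM in CBM, below the floor, and between 1.41 and 2.93 CPM in EBM. Dusp1, which encodes a MAP kinase phosphatase, was lower in EBM, at 1329, 764 and 595 CPM in CBM and 382, 447 and 400 CPM in EBM (edgeR adjusted p = 0.361, 0.00982 with DESeq2 and 0.0494 with 1 surrogate variable, and up to 0.854 over the alternatives). The list's centred mean was 0.269, -0.484 and -0.953 in CBM and 0.575, 0.353 and 0.240 in EBM. The regions overlapped on this list, since CBM 1 lay above EBM 3. The part of the digestion in the differences of the ATF4 genes was not tested.

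**Figure D4:**
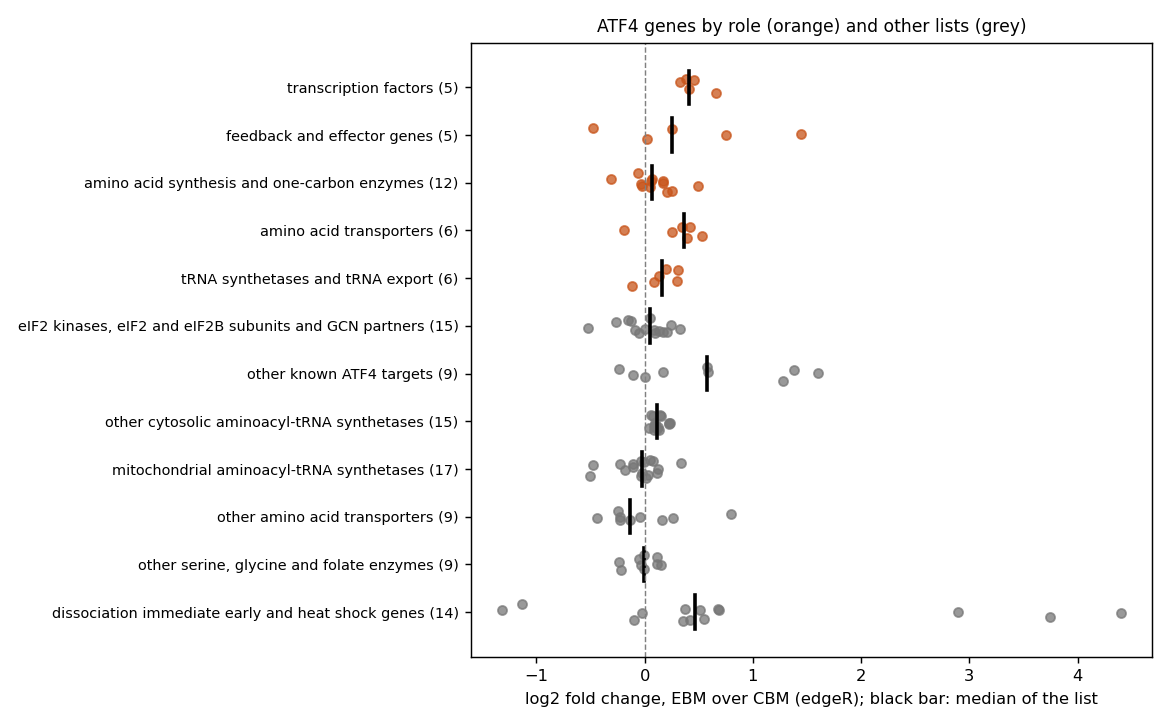
Log2 fold change in EBM over CBM (horizontal axis, edgeR) of each tested gene, one point per gene, for the 5 roles (orange) and 7 other lists (grey), with the number of genes tested in parentheses and a black bar at each median. Medians run from -0.13 for the other amino acid transporters to 0.57 for the other known ATF4 targets, and the 15 other cytosolic synthetases sit just right of 0.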

How the data were processed

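Per the submitters' processing notes, reads of 6 libraries were aligned with HISAT2 2.0.5 to mm10. Libraries were directional and made from rRNA-depleted RNA, while the labels give the library type as mRNA. The counting tool and its use of strand are not given in the sources used here. The authors deposited raw counts per gene with a gene length, without normalization. Coordinates were the same in GENCODE M21 for 98.3% of shared identifiers, which places them on GRCm38. The smallest chi-square per degree of freedom between replicates was 13.1, so none was counted as a repeat.

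From the counts, genes were kept by filterByExpr and tested with edgeR 4.0.16 (TMM, quasi-likelihood F-test, Benjamini-Hochberg adjustment over 13352 genes, R 4.3.3). Standard errors were derived from that test, as the absolute log2FC divided by the square root of its F statistic. CPM and RPKM were computed with TMM factors and the deposited gene lengths. Exact permutation tests enumerated the 20 relabellings of the 6 libraries on log2 CPM (prior count 2). The methods were tested on simulated data. Alternatives were DESeq2 1.42.0, limma-voom (limma 3.58.1), other size factors and filters, a replicate block, 1 surrogate variable (sva 3.50.0) and each library left out in turn.

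The genes and lists were chosen with earlier results of these data known. Values per library were to be given for every gene of the group with an unadjusted p under 0.05, for Atf4, Ddit3, Trib3, Chac1 and Asns, and for the 2 genes of each role with the smallest p, and of each other list up to 2 genes in each direction with the smallest p. Other genes with values per library, and Herpud1, were chosen after their values were seen. A gene of the other lists and a sequence are not reported here.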

Additional observations from a re-analysis of the deposited data

How the results depend on the processing

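The counts of genes past an adjusted p of 0.05 depended on the test. Over all genes the count of 0 became 175 with DESeq2, 40 with no filter on low counts and 276 with 1 surrogate variable, and it was 0 under the other alternatives. Of the ATF4 genes 0 passed in edgeR (5 at an unadjusted p under 0.05), 2 with DESeq2 (Slc38a2 and Trib3) and 4 with 1 surrogate variable (Slc38a2, Trib3, Ddit3 and Slc3a2). At an unadjusted p under 0.05 the count of 5 was 8 with 1 surrogate variable, where 7.93% of all genes were higher at that threshold beside 4.01% without it, and with each library left out it lay between 4 and 11. In every alternative 0 genes were lower at that threshold. Atf4, Cebpg, Trib3 and Slc38a2 had an unadjusted p under 0.05 in all 14 alternatives. The genes' median log2 fold change lay between 0.11 and 0.34 with each library left out, and between 0.20 and 0.25 otherwise.

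CBM and EBM libraries carry the same replicate numbers. In the fit with a replicate block, 8 genes had an unadjusted p under 0.05, beside 4.64% of all genes higher at that threshold (Aars, Atf5 and Ddit3 added), and 0 genes passed after adjustment. Deviations from the group means correlated with r of 0.68, -0.20 and 0.20 between libraries numbered 1, 2 and 3, while CBM 2 correlated better with EBM 3 (r = 0.51), so the numbers were not taken to pair the libraries.

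Some genes changed sign. Their adjusted p in the main edgeR fit was above 0.05, as was that of every gene tested. Cth was 0.033 with limma-voom and 0.0088 with the replicate block, Ppp1r15b was -0.0097 with upper-quartile size factors and Phgdh was -0.029 with 1 surrogate variable. With each library left out, the log2 fold change ran from -0.098 to 0.077 for Aldh18a1, from -0.33 to 0.31 for Cth, from -0.28 to 0.33 for Phgdh, from -0.0057 to 0.42 for Ppp1r15a, from -0.20 to 0.18 for Ppp1r15b, from -0.16 to 0.099 for Psph, from -0.080 to 0.25 for Shmt2, from -0.069 to 0.66 for Slc1a4, from -1.10 to 0.97 for Stc2, from -0.049 to 0.16 for Wars and from -0.20 to 0.0073 for Xpot. The causes were not tested. Depth limits Chac1, Stc2, Aldh1l2 and Cth, which had at most 68 counts in any library.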
